A study of Mus musculus with 2 samples.

Results

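Cluster 0 of the embryonic day 11.5 (E11.5) library was a group of mesenchymal cells of the mouse mandibular prominence, marked by Cited1, Osr1 and Foxf1. Its members were all cells that the authors' deposited cell table assigns to that cluster, 935 of the 7099 cells of the E11.5 library and of 13417 cells in the series. The comparison set was the other 10 clusters that the same table names mesenchyme and neural crest, with 4964 cells. The mandibular prominence, the tissue that forms the lower jaw, was dissected with the developing tongue bud from wild-type CD1 embryos at E11.5 and E13.5, and no group carried a mutation or a drug treatment. Tissue was minced and digested in the cold with a bacterial protease, at 3 mg/ml for E11.5 and 5 mg/ml for E13.5, and single cells were profiled by droplet (10x) RNA sequencing. Each stage was 1 library, and the number of embryos behind it is not given in the sources used here. There are no replicates, so every value below is a description of these libraries with no test. The clusters were made by the authors from the expression of these same cells, so a difference between clusters is not independent evidence.

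The mesenchyme of the mandibular prominence comes largely from the cranial neural crest, and is patterned from its distal tip to its hinge and from its oral to its outer side by signals of the overlying epithelium. Hedgehog, FGF, BMP, WNT and endothelin signals are the best known of these, and their responses include forkhead (FOX), HAND, DLX, MSX and LHX transcription factors. Cited1 encodes a coactivator that binds no DNA itself and works through CBP and p300, Osr1 a zinc finger factor of the odd-skipped family, Foxf1 a forkhead factor known as a hedgehog response gene in gut and facial mesenchyme, and Hand1 and Hand2 basic helix-loop-helix factors of the distal arch.

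Cluster 0 was the largest mesenchyme cluster, making up 13.2% of all cells in that library (12.4 to 13.98%) and 15.9% of cells in the 11 mesenchyme clusters (14.9 to 16.8%). It held 5637248 UMIs, each the count of a separate transcript molecule, or 5601 in the median cell and a median mitochondrial share of 4.47%. The other 10 clusters together held 31663077 UMIs, with a median of 6000.5 per cell. Levels are given as CPM, the UMIs of a gene scaled to a cluster total of 1000000. Intervals, at the 95% level throughout, cover counting error alone and not differences between embryos. The 2 libraries shared 71 cell barcodes, 8 of them in cluster 0. Among markers of other cell types, erythroid genes summed to 12361 CPM in cluster 0 and to between 12268 and 12557 CPM in the other mesenchyme clusters, against 710215 CPM in an erythroid cluster. Epithelial markers summed to 40.6 CPM in cluster 0, above the 24.4 to 37.9 CPM of the other 10 and far below the 2537 CPM of an epithelial cluster, and endothelial markers to 49.5 CPM against a range of 24.2 to 51.8 CPM. The part of these transcripts in the results was not tested. Csf1r, Ptprc and Adgre1 of macrophages, Foxd3 and Cdh19 of glia and neural crest, and Pax7 of muscle had no UMI in cluster 0.

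Upstream sequences are printed for 3 genes that were higher in cluster 0 than in the other mesenchyme clusters summed: Cited1, the forkhead gene Foxf2 and the imprinted gene Plagl1. They are RefSeq promoter entries of GRCm38.p6, and each run is the 250 bases before an annotated transcription start, 5′ to 3′ on the strand of the gene. The runs lie at chrX:102252182-102252431 (minus strand) for Cited1, at chr13:31625566-31625815 (plus strand) for Foxf2 and at chr10:13090582-13090831 (plus strand) for Plagl1. Capitals mark the core GGGTGG of the GLI motif, on either strand, and the E-box CATCTG, on either strand.
Cited1: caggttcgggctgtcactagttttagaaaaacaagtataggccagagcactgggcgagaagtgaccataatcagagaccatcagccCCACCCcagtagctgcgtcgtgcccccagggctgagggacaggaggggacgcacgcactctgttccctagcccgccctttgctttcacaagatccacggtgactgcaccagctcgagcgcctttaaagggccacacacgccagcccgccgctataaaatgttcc
Foxf2: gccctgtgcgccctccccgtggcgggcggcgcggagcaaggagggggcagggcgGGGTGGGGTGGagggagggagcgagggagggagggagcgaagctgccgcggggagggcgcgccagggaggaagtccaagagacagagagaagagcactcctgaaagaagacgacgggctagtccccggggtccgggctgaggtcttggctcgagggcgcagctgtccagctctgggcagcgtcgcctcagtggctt
Plagl1: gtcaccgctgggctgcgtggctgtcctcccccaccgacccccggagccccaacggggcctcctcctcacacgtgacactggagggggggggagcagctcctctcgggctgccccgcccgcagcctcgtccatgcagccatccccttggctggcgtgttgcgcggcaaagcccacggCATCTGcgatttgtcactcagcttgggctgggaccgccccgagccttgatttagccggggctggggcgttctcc
Counted back from the start, Cited1 held 1 core match, as CCACCC at positions -164 to -159, and Foxf2 held 2 that overlap by 1 base, at -196 to -191 and -191 to -186. Plagl1 held 1 E-box match, at -74 to -69. The core letters occur in 28.1% of the 32851 promoter entries of the table and CATCTG in 14.4%, so such matches are common. The 9-base GLI motif TGGGTGGTC, which contains the core, occurs in 0.225% of entries, the forkhead motif TGTTTAC in 3.17% and the LEF/TCF motif CTTTGAT in 3.21%. None of these 3 longer motifs was found in the windows shown. Cited1 has 3 RefSeq starts, and the windows of its other starts hold no match. Of 29 marker and leading genes looked up, 20 had an entry in the table. In 9 of these 20 an entry held a core match, among them the lower genes Six2, Irx3, Lef1 and Zeb2, while the higher genes Nrk, Aldh1a2 and Sat1 held none. Osr1, Foxf1, Hand1, Ebf2, Zcchc5, Fst, Lum and Tbx3 were among those with no entry.

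The 5 genes that name the cluster were first checked in each of the 11 mesenchyme clusters, and all 5 were higher in cluster 0 than in the other 10 clusters summed. They were also the basis of the name, so their levels describe the cluster and test nothing. Cited1 (GRCm38 X:102247381-102252181) was at 862 CPM in cluster 0 (838 to 886 CPM), and at a lowest of 35.9, a median of 62.1 and a highest of 357 CPM in the other 10 clusters. Cluster 0 stood apart from every other cluster here, since the next highest, cluster 10, was at less than the lower bound of cluster 0. Over the other clusters summed (118 CPM) the ratio was 7.32 (7.01 to 7.64). Foxf1 (8:121084386-121088144) was at 171 CPM in cluster 0 (161 to 182 CPM), and at a lowest of 3.76, a median of 13.2 and a highest of 146 CPM in the others. Cluster 0 was again the highest, but its interval met that of cluster 16, at 146 CPM (123 to 172 CPM), so the first place of cluster 0 is not beyond counting error. The ratio of Foxf1 over the other clusters summed (37.7 CPM) was 4.54 (4.17 to 4.95), and against only the 3 clusters most like cluster 0 it was 2.55.

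Osr1 and the HAND genes did not peak in cluster 0. Osr1 (12:9570116-9581500) was at 334 CPM in cluster 0 (319 to 349 CPM), and at a lowest of 17.3, a median of 66.1 and a highest of 414 CPM in the others. Cluster 7 was higher, beyond counting error, and cluster 6 followed at 231 CPM. The ratio over the other clusters summed (97.1 CPM) was 3.44 (3.25 to 3.64), and 6.68 over the 3 most similar clusters. Hand1 (11:57828705-57832818) was at 104 CPM in cluster 0, and at a lowest of 4.23, a median of 8.40 and a highest of 320 CPM in the others. Only cluster 4 was higher, and 8 of the 10 other clusters were at 18.2 CPM or less. Its ratio of 2.19 (1.98 to 2.41) was 1.02 against the 3 most similar clusters, which include cluster 4, so it was then no longer counted as higher. Hand2 (8:57320983-57324633) was at 129 CPM in cluster 0 (120 to 139 CPM), and at a lowest of 10.0, a median of 70.2 and a highest of 159 CPM in the others. Cluster 4 and cluster 16 were above cluster 0, and cluster 16, at 140.3 CPM (118 to 166 CPM), overlapped it. The paralogues of the markers differed: Foxf2 was at 55.7 CPM in cluster 0 against 10.1 CPM in the other clusters summed, Osr2 at 15.97 CPM against 53.8 CPM, and Cited2 at 31.0 CPM in cluster 0, below all of the other 10 clusters though within counting error of the nearest.

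**Figure D1:**
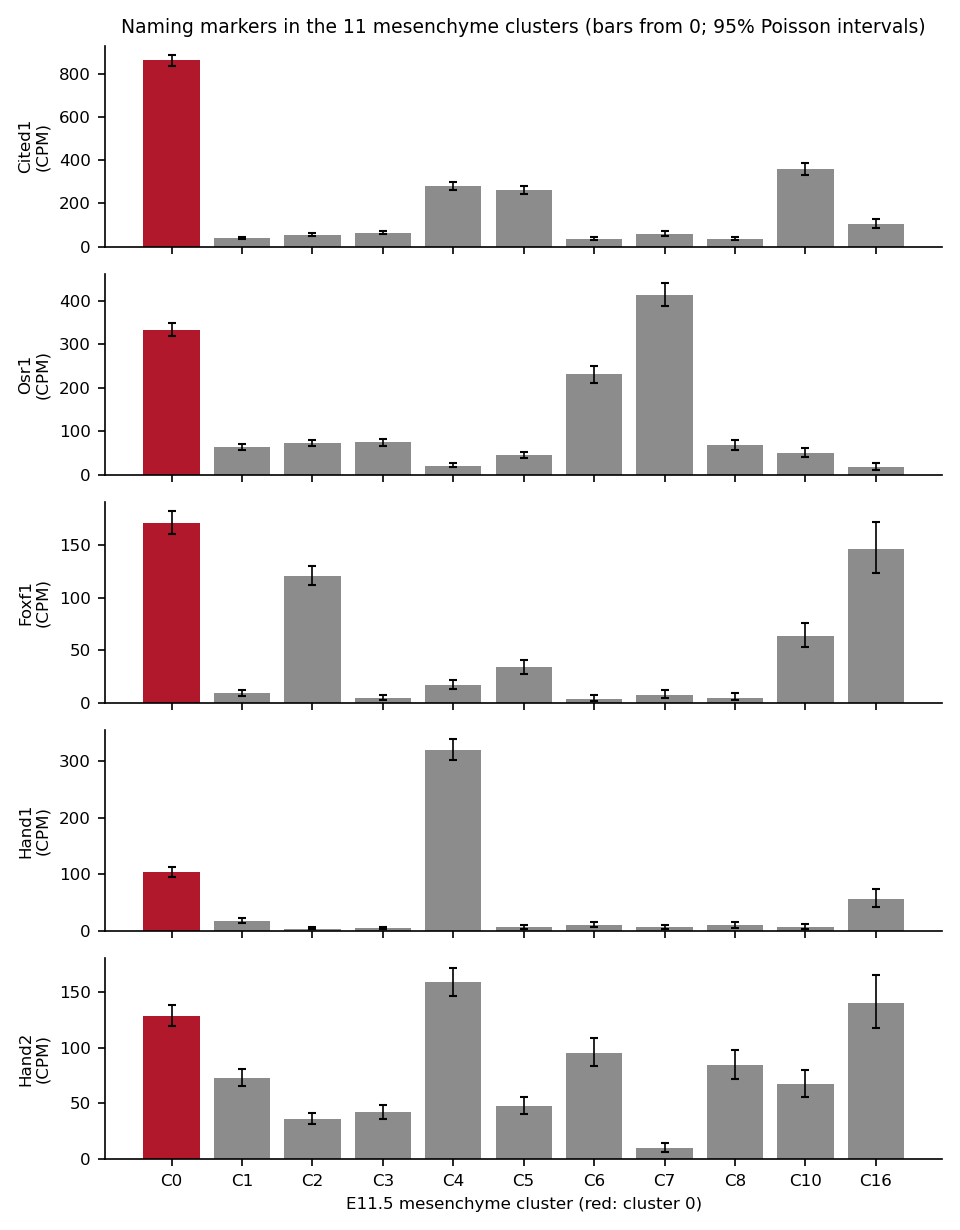
CPM of the 5 naming markers (vertical axes, from 0) in cluster 0 (red, left) and each of the other 10 E11.5 mesenchyme clusters (grey), with 95% Poisson intervals of the counts. Cited1 stands at 862 CPM in cluster 0 against at most 357 CPM elsewhere, while Osr1 is highest in cluster 7 and Hand1 in cluster 4.

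Per cell, the markers marked cluster 0 as a whole but rarely all at once. After each cell was thinned to 2000 UMIs, a Cited1 UMI was found in 68.7% of cluster 0 cells (65.6 to 71.6%). It was found in 14.7% of the other mesenchyme cells (13.7 to 15.7%) and in 5.70% of erythroid cells, which should lack the gene. Without thinning the shares were 86.1%, 31.2% and 31.8%, at median depths of 5601, 6000.5 and 13137 UMIs, so without thinning the other mesenchyme as a whole stood at the erythroid level. Thinning removed a larger part of the UMIs of the deeper erythroid cells. Their thinned shares may therefore understate the free RNA in mesenchyme cells and are not a matched background. Osr1 was found in 43.2% of cluster 0 cells, 14.1% of the other mesenchyme and 3.29% of erythroid cells after thinning (67.3%, 27.3% and 17.3% without), and Foxf1 in 26.8%, 5.68% and 0.658% (49.1%, 12.3% and 6.798% without). For both genes cluster 0 was above the erythroid share on either count. Hand1 was found in 14.2% of cluster 0 cells, 6.69% of the other mesenchyme and 0.658% of erythroid cells after thinning (24.4%, 11.8% and 5.48% without), and Hand2 in 22.5%, 12.1% and 2.19% (49.3%, 30.3% and 9.21% without). Of the 935 cells of cluster 0, 10.8% held none of the 5 markers, 33.5% held 1, 32.3% held 2, 17.01% held 3, 5.78% held 4 and 0.642% held all 5. In the other mesenchyme 57.1% of cells held none, 33.9% held 1, 7.60% held 2, 1.23% held 3, 0.101% held 4 and no cell held all 5.

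Within cluster 0 Foxf1 was found together with Osr1 and with Foxf2. Of the 251 cells with a Foxf1 UMI, 55.0% held Osr1 (48.6 to 61.2%), against 38.9% of the 684 cells without (35.2 to 42.7%). Among the 98 cells with a Foxf2 UMI, 52.0% held Foxf1 (41.7 to 62.2%), against 23.9% of those without (21.0 to 26.9%). The shares for Cited1 overlapped: Osr1 was found in 44.4% of cells with Cited1 (40.5 to 48.3%) and in 40.6% of cells without (34.9 to 46.5%), and Foxf1 in 27.7% and 24.9%. Ebf2 was found in 5.58% of cells with Foxf1 (3.08 to 9.18%) and 9.36% of cells without (7.28 to 11.8%). These are shares of cells of 1 library at a fixed depth, given without a test.

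Across all genes, 12655 held at least 20 UMIs in the 11 clusters and were counted as measured. A gene was counted as higher or lower when its CPM in cluster 0 differed at least 1.5-fold from the other clusters summed and the counting interval of the ratio excluded 1. By this rule of size 778 genes were higher (6.15%) and 442 lower (3.49%), and the median log2 ratio over all measured genes was 0.05. At 2-fold or more 405 were higher (3.20%) and 280 lower (2.21%). Of the 778 higher genes, 506 (65.0%) had their highest level of the 11 clusters in cluster 0, against 10.0% of all measured genes. Of the 442 lower genes 115 (26.0%) had their lowest there, against 2.84% of all measured genes. Genes counted as higher or lower are already favoured for these places by the rule. Such places go by the level alone, and neighbouring clusters can lie within counting error of each other.

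Ebf2, a helix-loop-helix factor of the early B-cell factor family, had the highest ratio among genes at 30 CPM or more. It was at 45.1 CPM in cluster 0, and at a lowest of 1.02, a median of 2.92 and a highest of 4.99 CPM in the others, a ratio of 15.2 (11.9 to 19.4). No other cluster came within the counting interval of cluster 0. Ebf3 of the same family was at 28.6 CPM against 10.4 CPM in the other clusters summed (2.76-fold, 2.27 to 3.34). Unlike Ebf2, it was nearly as high in cluster 4, at 27.9 CPM. Ebf1 was lower, at 26.1 against 54.2 CPM. Nrk, a kinase of the Nck-interacting kinase family, was at 80.7 CPM in cluster 0 and at 4.37 to 24.2 CPM in the others, 6.78-fold over their sum (5.90 to 7.79). Zcchc5, a gene with a CCHC zinc finger, was at 45.1 CPM in cluster 0 and 1.91 to 34.4 CPM in the others. Hic1, a transcriptional repressor used as a marker of mesenchymal progenitors, was at 47.0 CPM in cluster 0 and 0.971 to 35.1 CPM in the others, with cluster 7 the next highest. Its ratio was 6.03 over all 10 clusters and 10.7 over the 3 most similar. Sat1, which acetylates polyamines, was at 75.04 CPM in cluster 0 and 17.5 to 30.8 CPM in the others.

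Aldh1a2, which makes retinoic acid, was at 44.0 CPM in cluster 0 and 1.02 to 32.2 CPM in the others, 5.69-fold over their sum (4.75 to 6.81). Nrp1, a receptor for semaphorins and VEGF, was at 48.6 CPM in cluster 0 and 2.03 to 20.4 CPM in the others, 5.29-fold (4.47 to 6.26) and 8.95-fold over the 3 most similar clusters. Both were above every other mesenchyme cluster, Aldh1a2 with an interval that met that of cluster 10 (38.7 to 49.8 against 24.5 to 41.5 CPM). Nrp1 was at 113 CPM in an endothelial cluster. Among 6 measured endothelial markers, 2 were higher in cluster 0 than in the other mesenchyme clusters summed and 4 were neither higher nor lower. The higher ones were Kdr (4.435 against 1.105 CPM) and Pecam1 (4.435 against 1.958 CPM). Emcn (2.31 against 2.62 CPM) and Cdh5 (1.42 against 1.52 CPM) had the lowest ratios. The part of endothelial RNA in the level of Nrp1 was not tested. Fst, which encodes follistatin, a binding protein of activins and BMPs, was at 32.1 CPM in cluster 0 and up to 41.4 CPM in cluster 6, so cluster 0 was not its peak. Mirg, a noncoding RNA of the imprinted Dlk1 region, was at 30.2 CPM in cluster 0 and 2.49 to 16.3 CPM in the others.

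**Figure D2:**
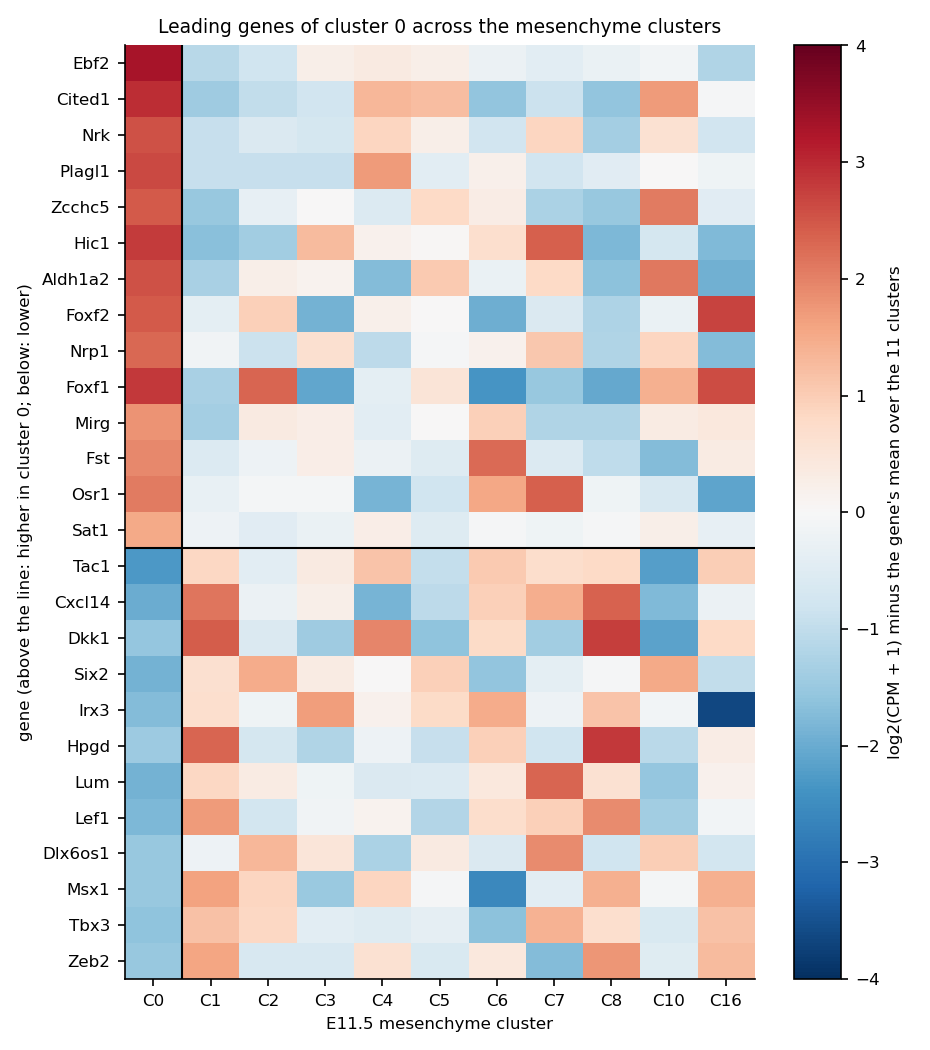
log2(CPM + 1) of leading genes with the highest ratios (rows above the line) and of the 12 with the lowest (rows below it) in cluster 0 (left column) and the other 10 E11.5 mesenchyme clusters, after subtracting each gene's mean over the 11 clusters (colour). Ebf2 is high in cluster 0 alone, while Foxf2 and Foxf1 are also high in cluster 16, and Tac1, Cxcl14, Six2, Lum and Lef1 are low in cluster 0, within counting error of the next cluster.

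The lowest ratios of the leading lower genes were those of Tac1 and Cxcl14. Tac1, which encodes the precursor of substance P, was at 4.61 CPM in cluster 0 and at a lowest of 4.91 and a highest of 59.6 CPM in the others, 8.01-fold lower than their sum (5.44 to 12.3). Cxcl14, a chemokine, was at 45.6 CPM in cluster 0 and 49.4 to 952 CPM in the others, 7.50-fold lower (6.62 to 8.52). Cluster 0 was the lowest of the 11 for both genes, with cluster 10 next for Tac1 and cluster 4 next for Cxcl14, but the intervals of cluster 0 met those of these clusters, so neither last place is beyond counting error. Against the 3 most similar clusters the ratio of Cxcl14 was 0.431, against 0.133 over all 10. Six2, a homeobox factor, was at 5.50 CPM in cluster 0 and 7.11 to 68.7 CPM in the others. Lum, which encodes the matrix proteoglycan lumican, was at 21.5 CPM in cluster 0 and 27.3 to 417 CPM in the others. Hpgd, which degrades prostaglandins, was at 10.3 CPM in cluster 0 and 12.4 to 220.0 CPM in the others. Dlx6os1, a noncoding RNA transcribed antisense to Dlx6, was at 7.27 CPM in cluster 0 and 8.94 to 86.8 CPM in the others, and Dlx6 itself was also lower (19.3 against 45.3 CPM in the other clusters summed). Whether the counting separated the strands is not given in the sources used here, so reads of Dlx6 and Dlx6os1 may not be separable. Zeb2, a repressor of epithelial genes, was at 9.93 CPM in cluster 0 against 42.5 CPM in the other clusters summed. Against the 3 most similar clusters the ratios of Hpgd, Lum and Zeb2 were 0.516, 0.278 and 0.361, closer to 1 than over all 10 clusters.

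Gene groups are described from here by the number of measured members that were higher or lower, to be read against the 6.15% and 3.49% of all measured genes. The members named are those with the highest and the lowest ratios of a list, and others that were chosen after their values were seen. The lists themselves were chosen with earlier results of these data known. Their counts therefore describe the listed genes and not whole gene families, and they test nothing. Most of the listed forkhead factors, a chosen part of that family, were higher. Of 9 measured members 7 were higher and 0 lower, and the median log2 ratio was 2.18. Foxf1 is one of them and also names the cluster, and the median is its own ratio. Foxd2 was at 12.8 CPM in cluster 0 against 0.821 CPM in the other clusters summed (15.6-fold, 9.81 to 25.4), and Foxd1 at 25.9 against 2.46 CPM (10.5-fold, 7.93 to 14.02). Both factors were highest in cluster 0, with cluster 16 next at 4.07 CPM for Foxd2 and 17.3 CPM for Foxd1. Foxf2 was at 55.7 against 10.1 CPM (5.49-fold, 4.69 to 6.44) and was exceeded by cluster 16, at 66.1 CPM. Foxc2, a factor of skeletal and vascular mesenchyme, was at 27.7 against 6.32 CPM (4.38-fold, 3.53 to 5.43), with cluster 10 higher at 40.4 CPM. Foxl1 rested on 21 UMIs in cluster 0, at 3.73 against 0.442 CPM, and was no longer counted in G1 cells only. Foxp1 was at 102 against 47.4 CPM, while Foxp4 (1.30-fold) and Foxp2 (1.05-fold) did not reach the 1.5-fold limit. Clusters 0, 16 and 2 had the most Foxf1 (171, 146 and 121 CPM), and their Ebf2 was at 45.1, 1.02 and 1.65 CPM.

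The 12 listed imprinted growth genes were all higher in cluster 0. Such genes are expressed mainly from a single parental copy, and many of them regulate fetal growth. Of 12 measured members 12 were higher and 0 lower, the median log2 ratio was 1.56, and each of the 12 was highest in cluster 0 of the 11 clusters, Peg10 and Zim1 within counting error of others. Over all measured genes, cluster 0 was the highest of the 11 clusters for 10.0%. Cdkn1c, which encodes a cyclin-dependent kinase inhibitor, was at 2706 CPM in cluster 0, and at a lowest of 377, a median of 1001 and a highest of 1297 CPM in the others, a ratio of 3.08 (3.02 to 3.14). Meg3, a noncoding RNA, was at 1460.1 CPM in cluster 0, and at 134, 462 and 1071 CPM as the lowest, median and highest of the others (3.21-fold, 3.12 to 3.30). Dlk1, its neighbour in the same imprinted region and a Notch ligand-like inhibitor of differentiation, was at 1275 CPM in cluster 0, and at 86.8, 446 and 1120.1 CPM in the others (3.26-fold, 3.16 to 3.35). The gap between cluster 0 and the next cluster was wide for Cdkn1c and narrow for Dlk1, where cluster 16 came close. H19 and Igf2, neighbours in another imprinted region, were at 970.5 against 433 CPM (2.24-fold, 2.17 to 2.31) and 310.1 against 149 CPM (2.08-fold, 1.97 to 2.20). Igf2 encodes a growth factor and H19 a noncoding RNA. Plagl1, a zinc finger transcription factor, was at 113 CPM in cluster 0 and at 8.57 to 57.5 CPM in the others, 6.73-fold over their sum (5.99 to 7.56). Zim1 (5.47-fold), Peg3 (3.17-fold), Ndn (2.81-fold), Mest (1.78-fold), Peg10 (1.76-fold) and Grb10 (1.67-fold) completed the list. Among G1 cells only, 12 of 12 were again higher, and against the 3 most similar clusters 11 were, Peg10 dropping to a ratio of 1.26.

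**Figure D3:**
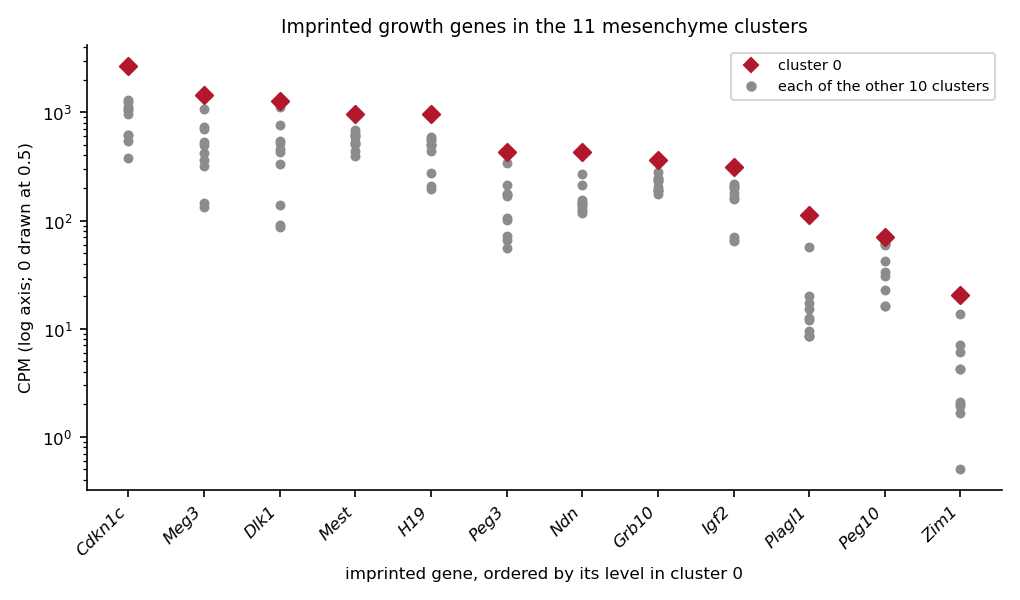
CPM of 12 imprinted genes (log axis, a value of 0 drawn at 0.5) in cluster 0 (red diamonds) and in each of the other 10 E11.5 mesenchyme clusters (grey points). The diamond lies above every grey point for all 12 genes, widely for Cdkn1c and Plagl1 and narrowly for Dlk1 and Peg10.

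Hedgehog genes were mixed: of 11 measured members 3 were higher and 1 lower, and their log2 ratios had a median of 0.08. Ptch1 and Gli1, both induced by the pathway, were among the 3. Ptch1, the receptor and a target, was at 30.2 CPM in cluster 0, and at a lowest of 6.68, a median of 11.9 and a highest of 65.0 CPM in the others (2.25-fold over their sum, 1.87 to 2.69). Gli1, a transcription factor and target, was at 18.6 CPM in cluster 0 and 5.01 to 27.4 CPM in the others (1.71-fold, 1.36 to 2.14). For both genes cluster 0 was second to cluster 16 and ahead of cluster 2, an order also seen for Etv4 and Etv5. Hhip, a further target, had only 6 UMIs in cluster 0, and its interval included 1. The mediators Smo (1.01-fold), Sufu (1.01-fold), Gli2 (0.813-fold) and Gli3 (0.919-fold) were within the 1.5-fold limit. Gas1, a hedgehog co-receptor, was at 81.8 CPM in cluster 0 against 167 CPM in the other clusters summed, 2.05-fold lower (1.86 to 2.26).

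FGF genes had 4 higher and 1 lower of 14 measured members, at a median log2 ratio of 0.12. The ligand Fgf10 was at 9.58 CPM in cluster 0, and at 1.25 to 7.72 CPM in the others (2.53-fold, 1.80 to 3.51). Etv4 and Etv5, transcription factors induced by FGF signals, were at 36.9 against 15.5 CPM (2.38-fold, 2.02 to 2.81) and 27.7 against 12.1 CPM (2.28-fold, 1.88 to 2.76), both second to cluster 16. In G1 cells only, the ratio of Etv4 was 4.13. Spred1, a feedback inhibitor, was at 37.96 against 24.1 CPM, while Spry1, a further inhibitor, was lower at 4.26 against 10.6 CPM (2.48-fold, 1.64 to 3.92). Retinoid genes had 3 higher and 1 lower of 13, and their log2 ratios had a median of 0.17. Besides Aldh1a2, the reductase Dhrs3 was at 9.93 against 3.54 CPM (2.81-fold) and the receptor Rarb, a retinoic acid target, at 28.03 against 17.4 CPM. Cyp26b1, which degrades retinoic acid, was at 9.40 CPM in cluster 0 and 10.4 to 37.9 CPM in the others, 2.26-fold lower than their sum (1.71 to 3.04). Its interval in cluster 0 (7.04 to 12.3 CPM) met those of clusters 5, 7 and 10. Among G1 cells only, Dhrs3 was at a ratio of 1.56 and was no longer counted.

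WNT genes were lower more often than higher. Of 23 measured members 3 were higher and 9 lower, and the median log2 ratio was -0.48. Lef1, the nuclear effector, was at 30.7 CPM in cluster 0, and at a lowest of 40.9, a median of 111 and a highest of 406 CPM in the others, 5.39-fold lower than their sum (4.63 to 6.31). Axin2, a direct target and feedback inhibitor, was at 12.6 CPM in cluster 0, and at 14.2, 36.9 and 78.2 CPM as the lowest, median and highest of the others, 3.53-fold lower (2.78 to 4.55). Both had their lowest level in cluster 0, but neither last place is beyond counting error, and the interval of Lef1 met that of cluster 10. The secreted inhibitors Dkk1 (7.81 against 56.3 CPM) and Notum (0.887 against 8.50 CPM), the ligand Wnt2 (0.887 against 6.76 CPM) and the inhibitor Nkd1 (27.0 against 70.9 CPM) were also lower, as were Dkk2, Dkk3 and Rspo3. Sp5, a target, rested on 19 UMIs in cluster 0 (3.37 against 0.979 CPM). Lgr5, a receptor for R-spondins, was at 9.22 against 4.80 CPM, and Sfrp1, a secreted inhibitor, at 85.7 against 48.9 CPM, each the highest of the 11 clusters. Lef1, Axin2, Nkd1, Dkk1 and Notum had their highest levels in clusters 8 and 1. These are not among the 3 most similar clusters. Against those 3, 5 of 21 members were lower and 3 higher, Lef1 was at a ratio of 0.394 and Axin2 at 0.541, Rspo3 was at 1.43, and Nkd1, Dkk2, Notum and Wnt2 were no longer counted. Among G1 cells only, 11 of 20 were lower and 1 higher, Sp5 and Lgr5 no longer being counted.

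BMP genes had 1 higher and 6 lower of 18 measured members, at a median log2 ratio of -0.42. The higher member was Fst. Id3, an inhibitory helix-loop-helix factor induced by BMP, was at 210.4 CPM in cluster 0 and 214 to 499.7 CPM in the others, 1.72-fold lower than their sum (1.62 to 1.82), and Id2 at 145.5 against 231.5 CPM. Bambi, a decoy receptor, was at 74.9 against 155 CPM (2.08-fold lower, 1.88 to 2.297). The differences were modest in size beside those of Lef1 and Msx1, and Bmp7, Smad7 and Bmpr1b rested on 31, 36 and 6 UMIs in cluster 0.

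Patterning genes of the arch split within each list. Of 17 distal and endothelin-dependent genes 5 were higher and 9 lower, and their log2 ratios had a median of -0.63. The higher ones included Hand1, Hand2, Gsc (267.5 CPM in cluster 0 against 149 CPM in the other clusters summed, 1.79-fold) and Alx4 (36.7 against 20.5 CPM). Msx1, a homeobox factor of the distal and oral arch, was at 160.0 CPM in cluster 0, and at a lowest of 76.5, a median of 636 and a highest of 1390.2 CPM in the others, 4.45-fold lower than their sum (4.17 to 4.76). Cluster 6 alone was lower. Dlx5, which with Dlx6 specifies lower jaw identity, was at 61.7 CPM in cluster 0, and at 88.2, 190.5 and 264.5 CPM as the lowest, median and highest of the others, 2.83-fold lower (2.54 to 3.16). Dlx5, Dlx6 and Tbx2 were lowest in cluster 0 of all 11. Tbx3 (14.6 against 64.4 CPM) and Msx2 (27.0 against 79.7 CPM) were lower too, and Dlx3 and Dlx4 rested on 9 and 3 UMIs. Hand1 and Hand2 also name the cluster. Against the 3 most similar clusters 3 members were higher and 6 lower, Hand1 and Alx4 (1.29) among those no longer counted, and in G1 cells only Gsc was at 1.48.

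Of 13 proximal and maxillary-type genes 1 was higher and 6 lower, at a median log2 ratio of -0.51. Meis2, a TALE homeobox factor, was at 169 CPM in cluster 0, and at a lowest of 23.4, a median of 32.5 and a highest of 108 CPM in the others (3.29-fold, 3.04 to 3.57). It was the highest of the 11 clusters by a wide margin. Irx5 was at 2.13 CPM in cluster 0 and 5.08 to 51.4 CPM in the others (9.78-fold lower, 5.56 to 19.02), and Irx3 at 10.3 against 61.1 CPM in the other clusters summed (5.94-fold lower, 4.58 to 7.85), both Iroquois homeobox factors. Dlx1, Dlx2, Eya1 and Pou3f3 were also lower, the last at 3.19 against 13.8 CPM but at a ratio of 0.961 over the 3 most similar clusters. Of 12 oral and dental genes 2 were higher, Osr1 and Tbx22, and 7 lower, and their log2 ratios had a median of -0.91. Tbx22, a T-box repressor of palate and tongue mesenchyme, was at 11.7 CPM in cluster 0 and 0.486 to 5.999 CPM in the others (5.08-fold, 3.58 to 7.18). Lhx8, a LIM homeobox factor of oral mesenchyme, was at 57.3 against 176 CPM (3.08-fold lower, 2.75 to 3.46), and Pax9, a factor of tooth mesenchyme, at 17.03 against 39.7 CPM. Osr2, Shox2 and Tbx18 were lower as well, and all 3 peaked in cluster 7, at 372, 192 and 167 CPM. Tbx18 was at a ratio of 1.36 over the 3 most similar clusters, with an interval that included 1.

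General mesenchymal factors had 2 higher, Ebf2 and Ebf3, and 5 lower of 10 measured members, at a median log2 ratio of -0.59. Twist1, which keeps neural crest cells mesenchymal, was at 24.8 CPM in cluster 0 and 28.2 to 71.5 CPM in the others (1.90-fold lower, 1.597 to 2.28). Prrx1 was at 251 against 479 CPM (1.91-fold lower, 1.80 to 2.01) and Prrx2 at 108 against 176 CPM. These widely expressed factors were thus lower but well detected in cluster 0.

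Of 19 guidance genes 6 were higher and 3 lower, and their log2 ratios had a median of 0.27. Besides Nrp1, these were Epha4 (90.7 against 50.7 CPM), Epha7, Efnb2, Unc5c and the chemokine Cxcl12 (95.3 against 60.5 CPM), all between 1.57-fold and 1.79-fold. Robo1, Robo2 and Sema3a were lower. Of 14 IGF and growth genes 4 were higher and 2 lower, at a median log2 ratio of 0.26. Agtr2, the type 2 angiotensin receptor, was at 5.68 CPM in cluster 0 and at no more than 1.67 CPM in the others (9.99-fold, 5.44 to 18.9), on 32 UMIs, and was no longer counted in G1 cells only. Pdgfc, a ligand of the receptor PDGFRA, was at 56.2 against 26.5 CPM (2.12-fold, 1.86 to 2.42). Igfbp3, which binds IGFs, was lowest in cluster 0 at 11.7 CPM, against 13.2 to 96.0 CPM in the others, and Ptn, which encodes pleiotrophin, was at 989.8 against 1618 CPM. Against the 3 most similar clusters, Epha7, Cxcl12, Unc5c, Sema3a, Robo2 and Pdgfa were no longer counted.

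Osteogenic genes were lower more often than higher over all 10 clusters. Of 11 osteogenic genes 1 was higher and 6 were lower, and their log2 ratios had a median of -1.07. Runx2, the master factor of bone, was at 5.14 CPM in cluster 0 and 11.8 to 38.6 CPM in the others (4.73-fold lower, 3.27 to 7.11), the lowest of the 11 clusters. When set against the 3 most similar clusters, 1 of 9 osteogenic genes was higher and 2 were lower, and the median was -0.58. Of 10 chondrogenic genes 2 were higher and 2 lower, at a median log2 ratio of -0.66. Sox9, the main factor of cartilage, was at 17.03 against 33.4 CPM, while the collagen IX genes Col9a1 (149 against 45.9 CPM, 3.26-fold, 2.99 to 3.55) and Col9a2 (25.9 against 5.81 CPM, 4.46-fold, 3.56 to 5.57) were higher. Cluster 10, which had the most Sox9 at 185 CPM, also had Col9a1 at 159 CPM. Of 23 matrix genes 2 were higher, Col9a1 and Eln, and 5 lower, and their log2 ratios had a median of -0.21, among them Dcn (6.39 against 20.8 CPM) and Col1a1 (93.1 against 196 CPM), neither of which was counted against the 3 most similar clusters. The tendon list had 3 members higher and 1 lower among 5 measured, all at under 10 CPM in cluster 0. In G1 cells only, Mkx was at a ratio of 0.869 against 1.72 over all cells, and the tendon list's median log2 ratio was -0.20 against 0.78.

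**Figure D4:**
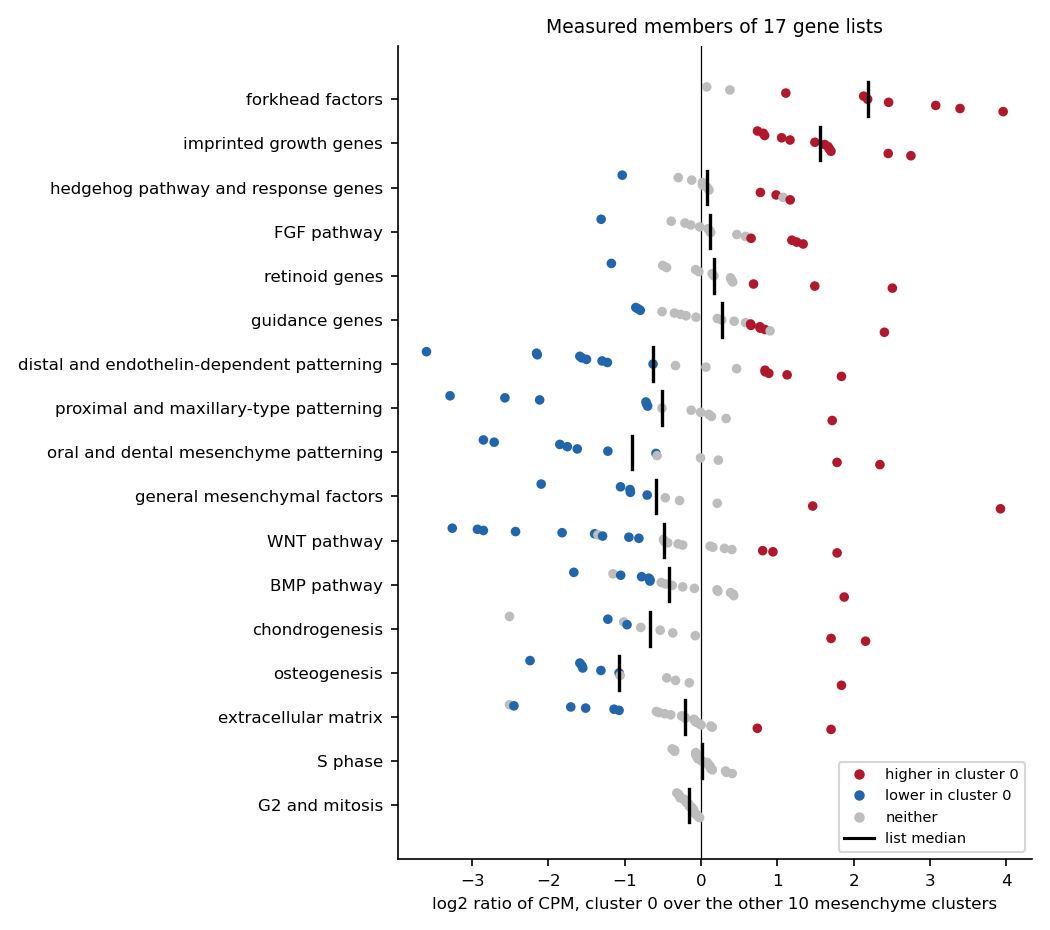
log2 ratio of CPM, cluster 0 over the other 10 E11.5 mesenchyme clusters, of each measured member (points) of 17 gene lists, with the list median (black line). Red points were higher and blue points lower by the rule of at least 1.5-fold with a counting interval that excludes 1. The forkhead and imprinted lists lie to the right of 0, the patterning and WNT lists spread to both sides, and the cell cycle lists have no coloured point.

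Cluster 0 held cells of all cell cycle phases. By the authors' phase calls 60.1% of its cells (56.9 to 63.3%) were in S or G2M, against 69.8% of the other mesenchyme cells (68.5 to 71.1%), and the other clusters ranged from 31.3% in cluster 5 to 97.8% in cluster 3. None of 21 S phase genes and none of 21 G2 and mitosis genes was higher or lower by the 1.5-fold rule. Within cluster 0, Cited1 was at 949.7 CPM in G1 cells (906 to 995 CPM), 790.3 CPM in S cells (746 to 836.5 CPM) and 838 CPM in G2M cells (800 to 876 CPM). Foxf1 ran the other way, at 137, 184 and 191 CPM, and Cdkn1c was at 3056.5, 2468 and 2576 CPM. In every phase these genes stayed above their level in the other clusters summed.

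The 3 clusters whose profiles were most like cluster 0, by Pearson correlation of log2(CPM + 1) over the 12655 genes, were cluster 4 (0.980), cluster 5 (0.977) and cluster 2 (0.976). Cluster 10 followed closely (0.975), so the cut after 3 clusters is a narrow one. All share the library, and the correlation is high for every mesenchyme cluster (lowest 0.957). Against cluster 4, the HAND-rich cluster, 389 genes were higher (3.60%) and 449 lower (4.15%) of 10811 measured. Aldh1a2 was at 44.0 CPM in cluster 0 against 1.31 CPM (33.5-fold, 14.2 to 104), Osr1 at 334 against 21.0 CPM (15.9-fold, 12.7 to 20.1), and Angptl1, an angiopoietin-like secreted protein, at 33.7 against 2.37 CPM. Dkk1 was at 7.81 against 98.0 CPM (12.6-fold lower, 9.17 to 17.6), Pax1 at 3.37 against 30.8 CPM and Msx2 at 27.0 against 192 CPM. Against cluster 5, 905 of 10645 genes were higher (8.50%) and 253 lower (2.38%). Hand1 was at 104 against 6.47 CPM (16.1-fold, 10.3 to 26.5) and Plagl1 at 113 against 12.6 CPM, while the lower genes included Six2, Irx3, Zfhx4 and Igfbp3. The histone gene Hist1h2ap was at 185 against 18.5 CPM, beside the share of cells in S or G2M of 60.1% in cluster 0 and 31.3% in cluster 5. The part of that difference in phase was not tested. Against cluster 2, which shares Foxf1, 1121 of 10910 genes were higher (10.3%) and 327 lower (3.00%). Hic1 (47.0 against 1.65 CPM), Ebf2 (45.1 against 1.65 CPM), Hand1 (104 against 4.23 CPM) and Cited1 (862 against 55.1 CPM) led the higher genes. Six2 (5.50 against 67.6 CPM), Dlx6os1, Pax9 (17.03 against 122 CPM) and Tbx3 (14.6 against 83.2 CPM) led the lower ones.

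The genes whose levels over the 11 clusters most resembled those of the markers were found by Pearson correlation among 10302 genes with at least 100 UMIs. For Cited1 they were Ak1, an adenylate kinase (0.973), Krtcap3 (0.948) and Stat5b, a transcription factor of cytokine signals (0.932). Ak1 was at 11.9 CPM in cluster 0 and 1.94 to 7.63 CPM in the others, with cluster 10 next as for Cited1. For Osr1 they were Sf3b2 (0.889), Sparcl1 (0.885) and Zswim4 (0.860), and for Foxf1 Polr2g (0.936), Gpr50 (0.931) and Stoml2 (0.929). Sf3b2, Polr2g and Stoml2 vary little between clusters, for example 329 CPM of Sf3b2 in cluster 0 against 303 to 326 CPM in the others.

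By position, the X chromosome held the highest share of higher genes. Of 12273 measured genes placed on 1 chromosome by symbol in GENCODE M21, 42 of 429 on the X chromosome were higher in cluster 0 (9.79%), against 4.35% to 7.90% on the numbered chromosomes. Cited1, Nrk and Sat1 of the leading genes lie there. Xist, the RNA of the inactive X chromosome, had 0 UMIs in cluster 0, which allows up to 0.532 CPM at 3 counts (exact 95% upper bound 0.654 CPM), and 2 UMIs in the other E11.5 mesenchyme. This count of chromosomes was chosen after the values were seen.

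The E13.5 library, which was not used to make cluster 0, was searched for cells with the same profile. Stage, library, protease concentration and embryo sex cannot be told apart in it: Xist was at 535.5 CPM in the E13.5 mesenchyme and 0.0536 CPM in the E11.5 mesenchyme. Over 12248 genes measured in both, the deviation of cluster 0 from the E11.5 mesenchyme correlated most with the deviations of E13.5 cluster 6 (0.362), cluster 3 (0.349) and cluster 4 (0.253) from the E13.5 mesenchyme, and least with cluster 2 (-0.318). In E13.5 cluster 6, 13 of the 15 leading higher genes were above the level of the E13.5 mesenchyme and 12 of the 12 leading lower genes below it. In cluster 4 these were 14 and 12, and in cluster 3 they were 11 and 9. The less similar clusters 11 and 14 had 7 and 5 of the higher genes above that level, and 10 of the 12 lower genes below it in each. Most of these leading genes were also part of the correlation, so their counts are not independent of the order of the clusters. The share of all genes above or below that level was not taken. Of the 756 genes higher in cluster 0 and measured at both stages, 210 were also higher in E13.5 cluster 6 over the other E13.5 mesenchyme clusters (27.8% of the cluster 0 genes and 26.7% of the cluster 6 genes), where 6.42% of all these genes were. Of 411 lower genes, 218 were also lower there (53.0% and 18.2%), where 9.78% of all these genes were. For E13.5 cluster 3 the higher genes shared were 225 (29.8% and 30.1%), where 6.10% of all these genes were higher, and the lower genes shared were 160 (38.9% and 18.2%), where 7.17% were lower. For E13.5 cluster 4 they were 156 higher genes (20.6% and 13.6%, where 9.39% of all were) and 201 lower ones (48.9% and 16.8%, where 9.77% of all were). Shared genes were not confined to these 3 clusters. Cluster 11 shared 160 lower genes (38.9% of the cluster 0 genes, where 10.06% of all were lower). It also shared 116 higher ones (15.3%, where 4.515% were higher). Even cluster 2 shared 81 lower genes (19.7%, where 12.03% were lower), but only 30 higher ones (3.97%, where 4.425% were higher). In cluster 21 the lower genes shared were 17 (4.14%, where 9.74% were lower).

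Cited1 at E13.5 was high in the same 3 clusters. It was at 228 CPM in cluster 6 (388 cells), 116 CPM in cluster 4 (442 cells) and 98.8 CPM in cluster 3 (472 cells), and at 3.44 to 13.1 CPM in the other 7 mesenchyme clusters. Hand1 was also highest in cluster 6, followed by clusters 4 and 3 at 55.2 and 49.8 CPM, and at most 14.9 CPM elsewhere. Ebf2 was at 127, 65.8 and 48.5 CPM in these clusters, but cluster 0 of that stage was at 50.3 CPM. Foxf1 and Foxf2 were highest in E13.5 cluster 11, at 192 and 220.0 CPM, a cluster with 11.9 CPM of Cited1, and clusters 4 and 6 followed. Osr1 was at 1345 CPM in E13.5 cluster 0 and at 496, 314 and 427 CPM in clusters 6, 4 and 3, so it no longer set these clusters apart. Of the 12 imprinted genes, 7 were higher in E13.5 cluster 6, 5 in cluster 4 and 6 in cluster 3, and 0 were lower in any of the 3, where 6.87%, 9.37% and 6.37% of all genes were higher. Of 23 WNT genes, 16 were lower in cluster 6, 12 in cluster 4 and 10 in cluster 3, where 10.1%, 10.5% and 7.72% of all genes were lower. Lef1 was at 2.20 CPM in cluster 6, against 57.4 CPM in the E13.5 mesenchyme as a whole.

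**Figure D5:**
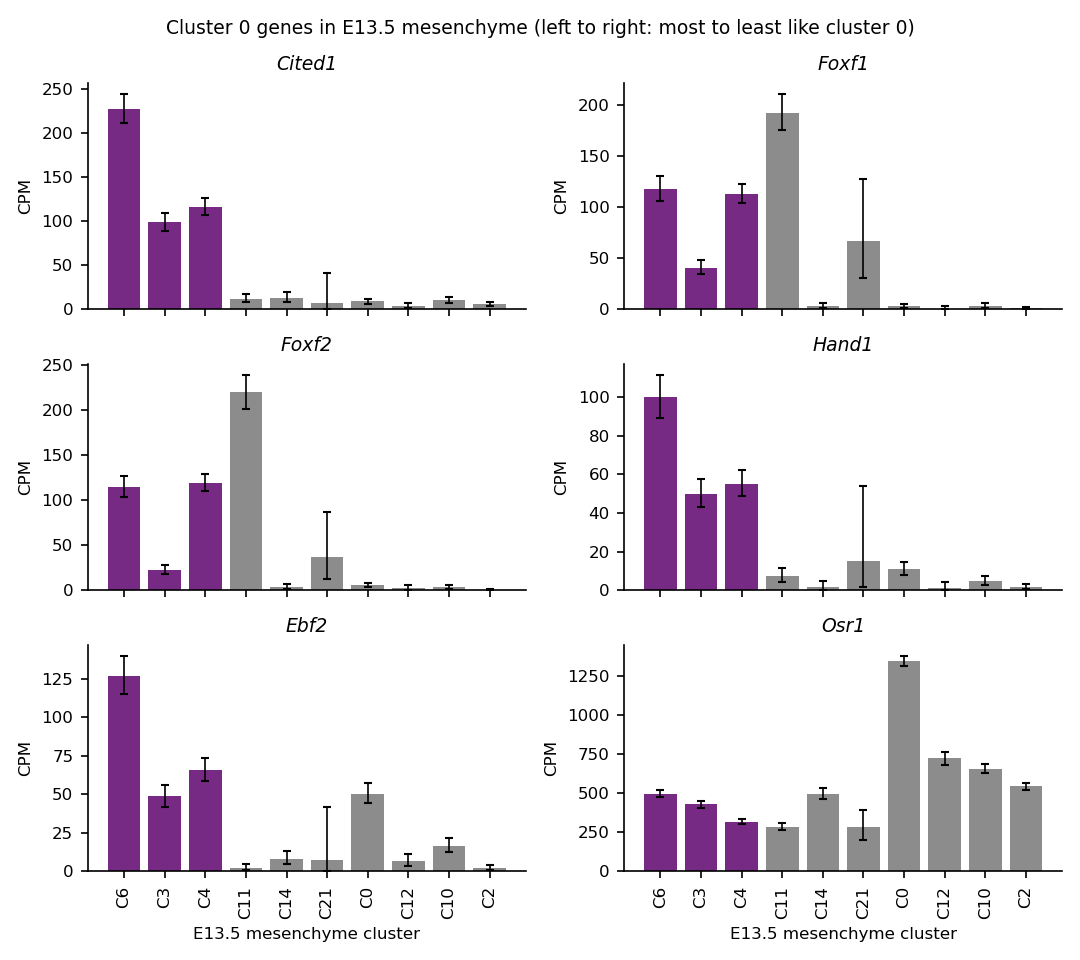
CPM (vertical axes, from 0, with 95% Poisson intervals) of 6 cluster 0 genes in the 10 clusters the authors named mesenchyme at E13.5, ordered from most to least like E11.5 cluster 0. Purple marks the 3 most similar clusters, 6, 3 and 4. Cited1 and Hand1 are high in these 3, Foxf1 and Foxf2 peak in cluster 11, and Osr1 peaks in cluster 0 of that stage.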

How the data were processed

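Gene by cell tables of UMI counts from 2 droplet libraries (E11.5 and E13.5 mandibular prominence, 1 library each) were used as deposited, with the cell table in which the authors give each cell's cluster, cell type name, cell cycle phase and phase scores, and the deposited mitochondrial fraction of its counts. Per the submitters' processing notes, the authors used Cell Ranger 2.0.0, Seurat 2.3.4 and the mm10 build. No cell was removed or reclustered here. The E11.5 cells held 49913485 UMIs (median 6231 per cell) and the E13.5 cells 67838169 (median 9280).

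UMI counts were summed per cluster and divided by the cluster's total to give CPM, computed here from the deposited counts. The ratio of cluster 0 to the other 10 clusters has an exact conditional binomial interval, levels have exact Poisson intervals and shares have exact (Clopper-Pearson) binomial ones, all at 95%. Genes with at least 20 UMIs over the 11 clusters were measured, and a gene was counted as higher or lower at 1.5-fold or more with an interval that excluded 1. This is a rule of size, since a single library for each stage allows no test and no p-value. The interval was checked on simulated Poisson counts with no variation between cells, which is what it assumes. That check therefore covers counting error alone. Shares were taken after thinning each cell to 2000 UMIs.

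The members, gene lists and comparisons were chosen with earlier results of these data known. The genes named are the 5 naming markers, the 15 highest and 12 lowest ratios with an interval wholly beyond 1.5-fold (at least 50 UMIs and 30 CPM, and for higher genes at least 0.2 of the highest level in any E11.5 cluster), the 4 highest and 4 lowest against each of the 3 most similar clusters, the extremes of the 32 gene lists, the paralogues Osr2, Foxf2 and Cited2, and the 3 most similar patterns for 3 markers. Some genes that this rule names are not reported here. Scrublet, run as a doublet caller, marked 8 of 7099 cells (0.113%) and so had not worked. Instead, the 5% of cells with the highest scores (368 cells, 37 of them in cluster 0) were left out as an alternative. Other alternatives were another total, equal weights of clusters or cells, the 3 most similar clusters as reference, G1 cells only, no UMI minimum and a 2-fold limit.

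Gene coordinates are from GENCODE M21 and promoters from RefSeq, both on GRCm38. The software was scanpy 1.11.5, matplotlib 3.10.9, pandas 2.3.3, scipy 1.17.1 and numpy 2.4.6 under Python 3.11.15.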

Additional observations from a re-analysis of the deposited data

How the results depend on the processing

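Every value rests on 1 library per stage, so differences between embryos could not be measured, and genes under about 20 UMIs in cluster 0 have wide counting intervals. No paired analysis was possible because each stage is 1 library. Leaving haemoglobin, mitochondrial and ribosomal protein genes out of the total rescales every ratio by the same factor. The ratios of all 202 single genes stayed within their counting intervals, and 730 genes were then higher and 464 lower. With a 2-fold limit 405 genes were higher and 280 lower. Against the 3 most similar clusters 661 genes were higher, 518 of them shared with the 778, and 274 were lower, 223 of them shared with the 442. In G1 cells 574 were higher (349 shared) and 388 lower (244 shared). With equal weight of the 10 clusters, the ratios of Cited1, Osr1 and Foxf1 were 6.65, 3.16 and 4.16. Against the 3 most similar clusters, the ratios of Cited1, Osr1, Foxf1, Hand1 and Hand2 were 4.90, 6.68, 2.55, 1.02 and 1.68, and in G1 cells 5.78, 3.18, 5.20, 1.79 and 1.59. Cited1 was at 7.76 without the highest Scrublet scores and Foxf1 at 5.18 with equal weight of cells. Without thinning, the shares of cluster 0 cells with Cited1, Osr1, Foxf1, Hand1 and Hand2 were 86.1%, 67.3%, 49.1%, 24.4% and 49.3%. The direction turned for Tbx18 (1.36), Dlx3 (1.51) and Rspo3 (1.43) against the 3 most similar clusters, and in G1 cells for Mkx (0.869) and the tendon list's median log2 ratio (-0.20). The interval of Rspo3 excluded 1 (1.09 to 1.88). Those of Tbx18 (0.623 to 2.84), Dlx3 (0.572 to 3.83) and Mkx (0.423 to 1.65) included 1. The cause of these differences was not tested. Over all alternatives, 1061 of the single gene ratios kept within the main interval, 147 left it and 4 turned.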

Other observations

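Several gene groups outside the patterning and growth lists were close to the rest of the mesenchyme. Among CITED coactivators and AP-2 partners, 1 of 8 measured members, Cited1 itself, was higher in cluster 0 and 0 were lower, at a median log2 ratio of -0.02. Among TGF-beta and activin genes, 1 of 9 was higher and 1 lower, with a median of -0.18. Tgfbi, which encodes a matrix protein induced by TGF-beta, was at 70.2 CPM in cluster 0 against 35.8 CPM in the other clusters summed (1.96-fold, 1.74 to 2.20), the highest of the 11 clusters. Inhba, which encodes the activin A subunit, was at 5.50 against 9.22 CPM. Among Notch genes, 0 of 7 were higher and 2 lower, with a median of -0.09. These were the target factors Hey1, at 5.32 against 18.7 CPM (3.51-fold lower, 2.43 to 5.24), and Hey2, at 1.597 against 10.99 CPM (6.88-fold lower, 3.58 to 15.2), while the receptor Notch1 was at a ratio of 1.22 with an interval that included 1. The Hey2 difference no longer passed the rule against the 3 most similar clusters.

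Among dissociation response genes, 1 of 10 was higher and 0 lower, at a median log2 ratio of 0.16. That gene was Jun, at 63.3 CPM in cluster 0 against 28.1 CPM in the other clusters summed. Among glycolysis and hypoxia genes, 0 of 15 were higher and 2 lower, Ankrd37 and P4ha1, with a median of -0.19. For S phase genes the median was 0.01 and for G2 and mitosis genes -0.15. Markers of other cell types had 2 of 9 higher and 0 lower for epithelium (Krt18, at 16.1 against 6.06 CPM, and Epcam), with a median of 0.21. For skeletal muscle 1 of 8 was higher (Des) and 1 lower (Pax3), with a median of -0.21. For endothelium 2 of 6 were higher (Kdr and Pecam1) and 0 lower, with a median of 0.42. For erythroid cells 0 of 9 were higher or lower, with a median of -0.01, and for macrophages 0 of 4, with a median of 0.24. For glia and neural crest 1 of 2 was lower (Fabp7), with a median of -0.95, and for pericytes 1 of 3 was lower (Rgs5), with a median of -0.29. The part of other cells or free RNA in these values was not tested.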
